A study of Mus musculus with 6 samples.

Results

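The nuclear genes of oxidative phosphorylation (OXPHOS) were examined in whole ovaries of mice at 9 days post partum (dpp). They were the protein-coding rows of the deposited table whose symbols begin with Nduf (complex I), Uqcr (complex III), Cox followed by 4 to 8 (complex IV) or Atp5 (complex V), together with Sdha to Sdhd (complex II). Of 98 such rows outside the mitochondrial sequence, 92 were selected on their level, a mean FPKM of 1 or more across cKO and WT libraries, out of 47205 rows in the table. FPKM stands for fragments counted on a gene per kilobase of its length, on a scale set by library depth. Because the level chose the genes, the levels below are a description. The rule did not use the difference between genotypes, but it was set with earlier results of these data known.

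The groups were 3 libraries from SRSF1 cKO ovaries, carrying a knockout of Srsf1 in granulosa cells, and 3 from WT ovaries. Srsf1 encodes a splicing factor, granulosa cells are the somatic cells around the oocyte, and neither the Cre driver nor the strain nor the number of animals behind a library is given in the sources used here. Whether the libraries of a group stand for different animals is not labelled, and the p-values therefore cover the spread among these libraries alone, which may be technical.

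OXPHOS is the process by which the inner mitochondrial membrane turns the energy of NADH and succinate into ATP. Complex I takes electrons from NADH and complex II from succinate, complex III passes them to cytochrome c, complex IV hands them to oxygen, and complex V, the ATP synthase, uses the proton gradient to make ATP. Most subunits are encoded in the nucleus and imported, and a small catalytic core is encoded by the mitochondrial genome. Oocytes are rich in mitochondria and receive metabolites from the granulosa cells around them.

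Recovered reads numbered 18643207, 18599173 and 18721895 in the cKO libraries and 16840923, 18236787 and 18512185 in the WT libraries, each in the order of replicates 1, 2 and 3, which holds for every set of 3 values below. Srsf1 stood at 22.9 ± 3.52 FPKM in cKO and 45.3 ± 4.96 FPKM in WT (SD, n = 3 each), with no overlap between the groups (log2 fold change -0.96, limma adjusted p = 0.32). Of marker lists for the cells of the tissue, 16 of 16 oocyte genes and 14 of 15 granulosa genes passed 1 FPKM, with Inhba below it. The granulosa genes summed to 895 to 1030 FPKM in cKO and 1061 to 1182 FPKM in WT, and the oocyte genes to 2815 to 3098 FPKM in cKO and 2875 to 3052 FPKM in WT. The leukocyte genes summed to 441, 99.3 and 215 FPKM in cKO, against 62.5, 49.6 and 70.1 FPKM in WT, with 0 of 14 markers at 0 in all libraries and Itgam alone below 1 FPKM. The erythroid genes ran from 158 to 574 FPKM in cKO and from 183 to 336 FPKM in WT, with 2 of 8 below 1 FPKM. Of 14 striated muscle genes, 11 lay below 1 FPKM, and the list summed to 11.6 to 15.7 FPKM in cKO and 5.14 to 11.7 FPKM in WT. The part of these cell types in the OXPHOS values was not tested.

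No nuclear OXPHOS gene differed between cKO and WT past the threshold of 0.05 for limma's adjusted p. Called genes numbered 0 of 92 higher, where 0.0068% of the 14714 genes tested were called, and 0 of 92 lower, where 0.0136% were (0.0204% in either direction). The smallest adjusted p among the 92 was 0.768, and limma-voom on the recovered reads also called 0 (smallest adjusted p 0.793). At an unadjusted p under 0.05, limma placed 2 of the 92 higher in cKO, where 3.64% of all genes tested were, and 0 lower, where 2.7% were. That count was 0 higher without cKO replicate 2 or WT replicate 2, and 6 higher without any 1 of the other 4 libraries. Over all 14714 genes tested, in either direction, limma gave such a p to 1045 without cKO replicate 2 and 487 without WT replicate 2. Without any 1 of the other 4 libraries it did so for 783 to 1053. The cKO libraries all lay above the WT libraries in 5 of the 92, where 6.37% of all genes tested did, and all below in 0, where 5.89% did. The 5 were Ndufa10, Ndufs7, Ndufa4l2, Ndufb4b and Uqcrc1. In each of these counts with all libraries, the share among OXPHOS genes was near or below that of all genes.

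The direction was less even than the calls. Of the 92 genes, 82 had a log2 fold change above 0, 89.1% of them, where 50% of all genes tested had. The median log2 fold change was 0.14 over the OXPHOS genes and 0.00 over all genes tested, on the scale log2(FPKM + 1). The values for single genes ran from -0.21 to 0.50. These small differences moved with 2 libraries and with gene length, as described after the complexes. In bulk tissue, a change in the number of cells of a type cannot be told apart from a change in RNA per cell.

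**Figure D1:**
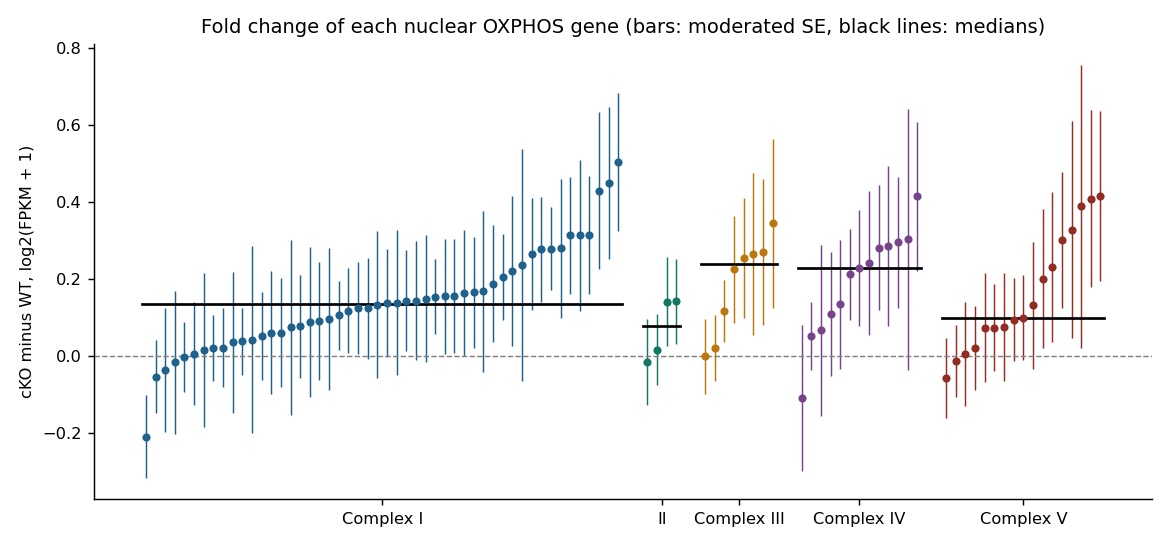
Log2 fold change of each nuclear OXPHOS gene, cKO minus WT on log2(FPKM + 1), sorted within its complex on the horizontal axis. Each point is a gene, bars are the moderated standard error, and black lines are the medians of the complexes, which lie between 0.08 and 0.24.

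Levels spanned a wide range. The 92 genes had a median of 47.6 FPKM over the 6 libraries, against 8.61 FPKM for all genes tested. Complex IV had the highest median over its 13 genes, 104 FPKM in cKO and 86.5 FPKM in WT. The 17 complex V genes stood at a median of 95.1 FPKM in cKO and 82.8 FPKM in WT, and the 4 complex II genes at 72.5 FPKM in cKO and 65.6 FPKM in WT. The 8 complex III genes had medians of 58.7 FPKM in cKO and 54.6 FPKM in WT. The 50 genes named for complex I were lowest, with a median of 25.8 FPKM in cKO and 24.7 FPKM in WT. Together the 92 genes took 0.614%, 0.686% and 0.599% of the recovered reads in cKO, and 0.616%, 0.531% and 0.631% in WT.

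**Figure D2:**
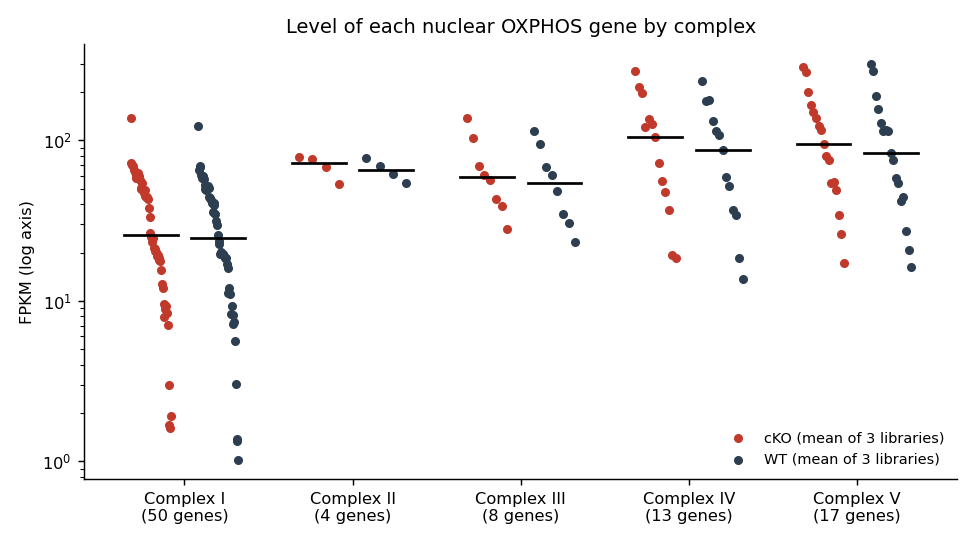
Mean FPKM (log axis) of each nuclear OXPHOS gene over the 3 cKO and the 3 WT libraries, by complex. Points are genes, sorted by level, and black lines are medians, 104 FPKM in cKO and 86.5 FPKM in WT for complex IV and 25.8 FPKM in cKO and 24.7 FPKM in WT for complex I.

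A few genes lay close to the level threshold. Just inside the threshold of 1 FPKM lay Ndufb4b (mean 1.47 FPKM), a copy of the accessory subunit gene Ndufb4, and Ndufaf6 (1.50 FPKM), an assembly factor. Just outside lay Cox8c (0.740 FPKM), a testis isoform of subunit VIII, and Ndufs6b (0.571 FPKM). The 4 rows further below were the muscle isoforms Cox6a2 (0.227 FPKM), Cox7a1 (0.216 FPKM) and Cox8b (0.0979 FPKM), and Cox7b2, which had 0 reads in all 6 libraries. A count of 0 allows Cox7b2 up to 0.288 to 0.321 FPKM per library (3 reads, counting error only).

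Complex I is the entry point for NADH, built from a catalytic core and many accessory subunits. Its 7 nuclear core genes had a median log2 fold change of 0.12, with 6 above 0. The 35 accessory genes had a median of 0.15, with 33 above 0, and the 8 assembly factors a median of 0.11, with 6 above 0. The highest of the 50 was Ndufa4, at 118, 148 and 149 FPKM in cKO and 120, 108 and 142 FPKM in WT. Its product is now known to sit in complex IV, although its name places it here. The groups overlapped. Next in level came the accessory subunit gene Ndufa6, with means of 72.7 ± 6.64 FPKM in cKO and 65.7 ± 11.9 FPKM in WT (SD, n = 3 each).

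Ndufs7, the core subunit that holds the last iron-sulfur cluster before ubiquinone, was one of the 2 genes with an unadjusted p under 0.05. It stood at 53.8, 59.3 and 48.9 FPKM in cKO and 46.6, 40.1 and 46.2 FPKM in WT, so that each cKO library lay above each WT library (log2 fold change 0.28, SE 0.107, limma unadjusted p = 0.0353, adjusted p = 0.771). Ndufs7 lies on chromosome 10 (80084939 to 80092628, plus strand, GRCm39). Ndufb4b on chromosome 19 (25010472 to 25010942, plus strand, GRCm39) was the other. It had 1.80, 2.54 and 1.39 FPKM in cKO and 1.11, 0.934 and 1.03 FPKM in WT (log2 fold change 0.50, SE 0.179, limma unadjusted p = 0.0258, adjusted p = 0.768). These values rested on 16, 23 and 12 reads in cKO and 9, 8 and 9 reads in WT. Ndufb4 itself had 55.6, 67.4 and 58.0 FPKM in cKO and 66, 38.3 and 53.8 FPKM in WT. The table ties Ndufb4, Ndufb4b and Ndufb4c to the same Swiss-Prot entry, so reads of these copies may be split among them, and their values are uncertain.

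Ndufa3, Ndufb7 and Ndufab1-ps came next among complex I genes by p, and none of them separated the groups. Ndufa3, a small accessory subunit gene, stood at 38.3, 59.9 and 48.3 FPKM in cKO and 43.7, 28.4 and 35.8 FPKM in WT (log2 fold change 0.43, SE 0.204, limma adjusted p = 0.781). Ndufb7, an accessory subunit gene, stood at 56.1, 73.3 and 57.6 FPKM in cKO and 51.1, 41.9 and 57.0 FPKM in WT (log2 fold change 0.31, SE 0.151, limma adjusted p = 0.784). Both were highest in cKO replicate 2 and lowest in WT replicate 2. Ndufab1-ps, which the table lists as protein coding and describes as subunit AB1b, stood at 12.5, 18.3 and 15.6 FPKM in cKO and 9.39, 9.51 and 14.5 FPKM in WT (log2 fold change 0.45, SE 0.198, limma adjusted p = 0.773). Ndufab1, the gene of the mitochondrial acyl carrier protein, had 20.1 ± 2.31 FPKM in cKO and 19.3 ± 1.83 FPKM in WT.

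On the other side, Ndufaf7 had the smallest p among the 10 genes with a log2 fold change below 0. It encodes an assembly factor of complex I. It stood at 8.48, 7.45 and 7.78 FPKM in cKO and 8.19, 9.58 and 10.2 FPKM in WT (log2 fold change -0.21, SE 0.108, limma adjusted p = 0.798). Overlap of the groups came through WT replicate 1. Ndufa9, an accessory subunit gene, had 49.9 ± 2.79 FPKM in cKO and 52 ± 4.26 FPKM in WT, and the assembly factor gene Ndufaf5 had 2.98 ± 0.79 FPKM in cKO and 3.04 ± 0.249 FPKM in WT.

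Complex II, succinate dehydrogenase, is encoded wholly in the nucleus. Sdha, the flavoprotein subunit, stood at 83.2, 73.7 and 79.5 FPKM in cKO and 77.9, 83.1 and 72.9 FPKM in WT. Sdhb, the iron-sulfur subunit, had 68.3 ± 6.02 FPKM in cKO and 62 ± 7.21 FPKM in WT (SD, n = 3 each). The membrane anchor genes Sdhc and Sdhd had 76.7 ± 9.63 and 53.3 ± 1.96 FPKM in cKO, against 69.1 ± 3.59 and 54.2 ± 6.86 FPKM in WT. The 4 log2 fold changes ran from -0.02 to 0.14, the narrowest range of the 5 complexes, and the groups overlapped in all 4 genes.

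In complex III, the median log2 fold change was 0.24, with 7 of 8 genes above 0. Uqcrh, the hinge subunit gene, stood at 110, 154 and 146 FPKM in cKO and 115, 90.0 and 137 FPKM in WT (log2 fold change 0.27, SE 0.19, limma adjusted p = 0.831). Uqcrc1, one of the core proteins, stood at 102, 106 and 101 FPKM in cKO and 95.7, 91.3 and 97.8 FPKM in WT, with every cKO library above every WT library (log2 fold change 0.12, SE 0.0805, limma adjusted p = 0.83). Uqcrc2, which encodes the second core protein, had 69.5 ± 2.39 FPKM in cKO and 68.6 ± 4.34 FPKM in WT. The Rieske iron-sulfur protein gene Uqcrfs1, chosen after its values were seen, had 60.7 ± 2.17 FPKM in cKO and 60.9 ± 6.11 FPKM in WT. The larger positive values came from the small subunits Uqcr10, Uqcr11, Uqcrb, Uqcrh and Uqcrq, with log2 fold changes of 0.22 to 0.34.

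Complex IV, cytochrome c oxidase, had a median log2 fold change of 0.23, with 12 of 13 genes above 0. Cox4i1, the ubiquitous form of subunit IV, stood at 253, 296 and 267 FPKM in cKO and 252, 188 and 262 FPKM in WT (log2 fold change 0.23, SE 0.151, limma adjusted p = 0.825). Cox6a1 stood at 188, 262 and 199 FPKM in cKO and 196, 146 and 184 FPKM in WT. Cox6c had 198 ± 42.5 FPKM in cKO and 179 ± 17.5 FPKM in WT (SD, n = 3 each). In each of these genes cKO replicate 2 was the highest library and WT replicate 2 the lowest, and the groups overlapped. Cox7a2l, a gene for a supercomplex assembly factor, was the 1 complex IV gene with a log2 fold change below 0 (-0.11, SE 0.189, limma adjusted p = 0.914). It was lowest in cKO replicate 2 and highest in WT replicate 3. There its pseudogene copy Gm6969 held 30.3% and 1.59% of the reads of both. The sum of gene and copy was not fitted, and the direction is uncertain.

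Complex V has a catalytic head, F1, and a membrane part with a stalk, Fo. Atp5b, the beta subunit of F1 and the highest OXPHOS gene, stood at 303, 263 and 298 FPKM in cKO and 305, 285 and 308 FPKM in WT (log2 fold change -0.06, SE 0.105, limma adjusted p = 0.919). Atp5a1, the alpha subunit, had 266 ± 11.2 FPKM in cKO and 269 ± 10.2 FPKM in WT (SD, n = 3 each). Over the 5 F1 genes the median log2 fold change was 0.00, with 3 above 0. Over the 12 Fo and stalk genes it was 0.17, with 12 above 0. Atp5o, the stalk subunit that confers oligomycin sensitivity, had 200 ± 31.1 FPKM in cKO and 189 ± 19.7 FPKM in WT. Among F1 genes, Atp5e, the small epsilon subunit, stood at 122, 124 and 168 FPKM in cKO and 133, 55.4 and 153 FPKM in WT, so that WT replicate 2 lay far below the other 5 libraries.

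Some subunits exist as paralogous isoforms, and the ratio of a pair in each library gives their relative level. Cox4i2, the form of subunit IV known for its induction by low oxygen, stood at 19.6, 20.8 and 14.8 FPKM in cKO and 16.7, 10.3 and 14.1 FPKM in WT (log2 fold change 0.42, SE 0.194, limma adjusted p = 0.777). Cox4i2 amounted to 7.76%, 7.03% and 5.57% of Cox4i1 in cKO and to 6.64%, 5.47% and 5.36% in WT. Cox6b2, known as a testis form of subunit VIb, was well expressed in these ovaries, at 36.7 ± 11.9 FPKM in cKO and 34.1 ± 4.73 FPKM in WT. It amounted to 24.3%, 36.5% and 25.6% of Cox6b1 in cKO and to 32.2%, 29.7% and 32.2% in WT. Ndufa4l2, a paralog of Ndufa4 known for its induction by low oxygen, stood at 6.61, 8.86 and 5.82 FPKM in cKO and 5.80, 5.49 and 5.68 FPKM in WT, and amounted to 5.16 ± 1.11% of Ndufa4 in cKO and 4.64 ± 0.579% in WT. For the genes of subunit c of ATP synthase, Atp5g1 amounted to 29.8 ± 6.33% of Atp5g2 in cKO and 28.3 ± 3.23% in WT, and Atp5g3 to 69.9 ± 6.13% in cKO and 72.4 ± 2.26% in WT. Cox7a2l exceeded its paralog Cox7a2, at 221 ± 59.9% of it in cKO and 252 ± 18% in WT, with reads on the Cox7a2l copy Gm6969 left out. Cox8a, the ubiquitous form of subunit VIII, had 104 ± 17.2 FPKM in cKO and 86.5 ± 22.8 FPKM in WT, while Cox8b and Cox8c lay below the level threshold. Over these 6 ratios, exact permutation tests on both sides gave p = 0.2 or more (0.8 after Benjamini-Hochberg adjustment over the 6), where 3 against 3 libraries can give no p below 0.1. No ratio separated the groups.

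Promoter sequences are shown for 5 genes: Ndufs7, the more abundant gene of the pair with an unadjusted p under 0.05, Cox6a1 as a short gene that was highest in cKO replicate 2 and lowest in WT replicate 2, Atp5b as the most abundant and near-level gene, and the isoform pair Cox6b1 and Cox6b2. Each runs from 250 bases before to 50 bases after the start of the gene, in 300 bases, 5′ to 3′ on the strand of the gene, from RefSeq on GRCm38.p6. They lie at chr10:80249199-80249498, plus strand (Ndufs7), chr5:115348909-115349208, minus strand (Cox6a1), chr10:128083057-128083356, plus strand (Atp5b), chr7:30626065-30626364, minus strand (Cox6b1) and chr7:4753045-4753344, minus strand (Cox6b2). Capitals mark matches, on either strand, to 5 short motifs of factors known for respiratory or housekeeping promoters: GCGCA and GCGC with any base between them (NRF1), CCGGAAG (GABP), AAGATGG (YY1), GGGCGG (SP1) and AAGGTCA (estrogen-related receptors).
Ndufs7: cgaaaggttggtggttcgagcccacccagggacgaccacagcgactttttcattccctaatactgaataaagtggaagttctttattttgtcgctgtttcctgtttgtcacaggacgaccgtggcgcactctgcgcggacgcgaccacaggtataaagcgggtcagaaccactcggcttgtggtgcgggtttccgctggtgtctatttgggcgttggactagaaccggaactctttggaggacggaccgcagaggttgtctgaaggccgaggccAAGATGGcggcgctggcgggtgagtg
Cox6a1: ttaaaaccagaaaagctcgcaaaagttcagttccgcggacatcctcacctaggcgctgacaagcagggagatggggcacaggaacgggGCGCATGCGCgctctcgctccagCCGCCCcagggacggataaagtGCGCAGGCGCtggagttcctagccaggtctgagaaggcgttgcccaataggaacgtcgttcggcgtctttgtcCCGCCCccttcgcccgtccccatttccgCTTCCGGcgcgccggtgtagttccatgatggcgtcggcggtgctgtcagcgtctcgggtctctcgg
Atp5b: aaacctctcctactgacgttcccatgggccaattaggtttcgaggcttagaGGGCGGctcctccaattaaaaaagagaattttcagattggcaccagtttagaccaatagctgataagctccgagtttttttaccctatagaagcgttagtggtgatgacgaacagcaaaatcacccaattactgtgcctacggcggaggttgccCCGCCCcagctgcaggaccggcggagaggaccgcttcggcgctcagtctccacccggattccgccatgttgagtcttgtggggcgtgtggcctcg
Cox6b1: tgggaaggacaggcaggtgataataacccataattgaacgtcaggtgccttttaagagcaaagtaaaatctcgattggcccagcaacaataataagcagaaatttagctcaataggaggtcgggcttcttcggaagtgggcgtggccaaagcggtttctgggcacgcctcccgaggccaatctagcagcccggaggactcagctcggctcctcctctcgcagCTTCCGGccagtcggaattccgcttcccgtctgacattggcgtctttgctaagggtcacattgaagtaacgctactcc
Cox6b2: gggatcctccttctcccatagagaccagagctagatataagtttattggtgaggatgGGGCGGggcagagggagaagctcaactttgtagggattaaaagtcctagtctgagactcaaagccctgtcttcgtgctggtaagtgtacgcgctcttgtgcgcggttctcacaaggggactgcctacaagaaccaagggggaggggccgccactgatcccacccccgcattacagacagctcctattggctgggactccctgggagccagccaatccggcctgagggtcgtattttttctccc

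In these windows Ndufs7 held 1 YY1 motif, and Cox6a1 held 2 NRF1, 1 GABP and 2 SP1 motifs. Atp5b held 2 SP1 motifs, Cox6b1 1 GABP motif and Cox6b2 1 SP1 motif. Sequences were found for 75 of the 92 genes, and for 10099 other protein-coding genes tested. A gene was counted if any of its promoter sequences held a match, and the number of sequences per gene was not compared. The NRF1 motif was counted in 25.3% of the OXPHOS genes and 11.2% of the others, and the GABP motif in 25.3% and 19.7%. The YY1 motif was counted in 16% and 8.30%, and the motif of estrogen-related receptors in 10.7% and 3.73%. The SP1 motif was found in 45.3% of the OXPHOS genes and 69.3% of the others. Over all 27025 genes with a promoter sequence, the shares were 5.19% for NRF1, 9.93% for GABP, 7.28% for YY1, 5.38% for estrogen-related receptors and 38.2% for SP1. Matches of different motifs do not overlap in the 5 sequences shown. Of the 75 OXPHOS genes with a sequence, 16 held none of the 5 motifs. The median log2 fold change was 0.12 in the 19 genes with an NRF1 motif and 0.13 in those without, and 0.21 in the 19 with a GABP motif and 0.10 in those without. With and without a motif it was 0.091 and 0.133 for YY1, 0.107 and 0.133 for SP1, and 0.120 and 0.124 for estrogen-related receptors. A match is a string of letters and not a measured binding site, and these shares and medians carry no test.

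Most OXPHOS genes shared 1 profile across the libraries. The median deviation of the 92 genes from their own means over the 6 libraries was, on the log2 scale, 0.00, 0.26 and -0.00 in cKO and 0.00, -0.25 and 0.06 in WT. The highest library was cKO replicate 2 in 65 of the 92 genes, where it was in 24.3% of all genes tested. The lowest was WT replicate 2 in 62 of the 92, where it was in 20.9% of all genes tested. Both held in 50 of the 92, where they did in 9.28% of all genes tested. Without cKO replicate 2 the median log2 fold change was 0.06 with 66 of 92 genes above 0 (52.3% of all genes tested). Without WT replicate 2 it was 0.04 with 62 above 0 (48.6% of all genes tested). Without both, it was -0.02 with 40 of 92 above 0 (50.7% of all genes tested). These 2 libraries were chosen after their values were seen, as most often the highest and the lowest. Leaving them out therefore lowers the median by the choice itself, and the size of the drop carries no test. By complex, leaving out both gave medians of -0.03 in complex I, -0.01 in complex II, 0.01 in complex III, -0.02 in complex IV and -0.03 in complex V. The 7 core genes of complex I then had a median of 0.06, with 5 above 0, the 35 accessory genes -0.06, with 12 above 0, and the 12 Fo and stalk genes of complex V -0.10, with 4 above 0.

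**Figure D3:**
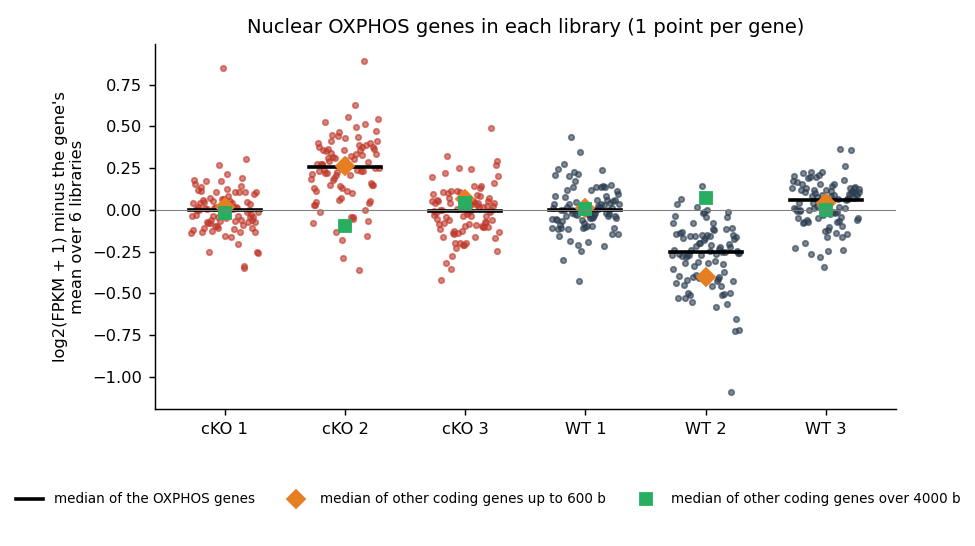
Deviation of each nuclear OXPHOS gene from its mean over 6 libraries, on log2(FPKM + 1), for the cKO and WT libraries (1 point per gene, black lines for medians). Medians lie at 0.26 in cKO replicate 2 and -0.25 in WT replicate 2 and between -0.00 and 0.06 in the other libraries. Diamonds and squares are medians of other protein-coding genes up to 600 and over 4000 bases long.

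The same 2 libraries stood apart in other short genes. OXPHOS genes are short, with a median length of 906 bases in the table, against 3713 bases for all protein-coding genes tested. Among the 27 OXPHOS genes of up to 600 bases, 26 had a log2 fold change above 0, with a median of 0.26. Among the 130 other protein-coding genes of that length, 106 did, 81.5%, with a median of 0.24. In the 23 OXPHOS genes of over 600 and up to 1000 bases the median was 0.14, and in 424 other genes 0.15. In the 28 of up to 2000 bases it was 0.11, and in 2023 other genes 0.09. In the 12 of up to 4000 bases it was 0.03, and in 4205 other genes 0.02. Of the 5855 other genes over 4000 bases, 34.2% had a log2 fold change above 0, with a median of -0.05. The 2 OXPHOS genes of that length were Ndufaf6 and Atp5j (log2 fold change 0.14 and 0.07). The length classes were chosen after the values were seen.

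**Figure D4:**
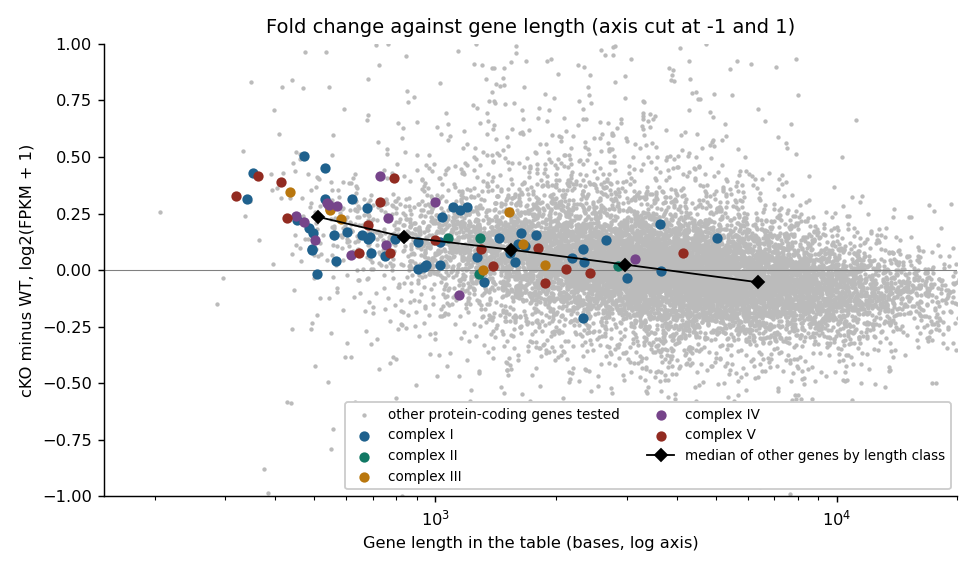
Log2 fold change, cKO minus WT, against gene length on a log axis, for the nuclear OXPHOS genes by complex (colours) and the other protein-coding genes tested (grey). The vertical axis ends at -1 and 1, so a few grey genes lie outside. Diamonds are medians of the other genes in 5 length classes, from 0.24 up to 600 bases to -0.05 over 4000 bases, and the OXPHOS medians run from 0.26 to 0.03 over the 4 classes up to 4000 bases.

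Other short genes had a similar profile. The 130 other genes of up to 600 bases had median deviations of 0.02, 0.26 and 0.07 in cKO and of 0.01, -0.40 and 0.04 in WT, against -0.04, 0.36 and 0.05 in cKO and 0.03, -0.39 and -0.04 in WT for the OXPHOS genes of that length. Ndufs1, which encodes the largest core subunit of complex I, is 3657 bases long in the table and was chosen after its values were seen. It had 18.6 ± 1.66 FPKM in cKO and 18.6 ± 0.408 FPKM in WT. Ndufaf4, an assembly factor gene of nearly the same length (3632 bases), was also chosen after its values were seen. It had 9.60 ± 0.439 FPKM in cKO and 8.23 ± 1.13 FPKM in WT (log2 fold change 0.21, SE 0.112, limma adjusted p = 0.801). Across the 92 genes, Spearman's rho between length and log2 fold change was -0.59, and across 12637 other protein-coding genes -0.39. These are correlations across genes that share the same 6 libraries, and genes are not independent replicates. With a trend on gene length removed from each library, the median over the OXPHOS genes was 0.04, with 62 of 92 above 0 (50.4% of all genes tested), and 0 were called. The trend did not take up all of the relation, and Spearman's rho over the 92 was still -0.28. Of the 27 OXPHOS genes of up to 600 bases, 22 still lay above 0, with a median of 0.12. So did 85 of the 130 other protein-coding genes of that length, 65.4%, with a median of 0.09. What sets the level of short genes in these 2 libraries was not tested.

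Other genes of the pathway were described from lists. Of the 13 protein-coding genes of the mitochondrial genome, 12 passed the filter and 11 of these had a log2 fold change above 0, with a median of 0.22 and 0 called. Their profile over the libraries was not that of the nuclear genes, with median deviations of -0.14, 0.22 and 0.28 in cKO and -0.24, -0.17 and 0.11 in WT. Without replicate 2 of both groups their median was 0.13, with 10 of 12 above 0. ND3, a complex I core subunit, ran from 3.13 to 4.04 FPKM in cKO and from 0.948 to 3.11 FPKM in WT (log2 fold change 0.83, SE 0.295, limma adjusted p = 0.768). ND3 had the lowest level of the 12, a mean of 2.60 FPKM against a median of 916 FPKM. It is 348 bases long, so its values rested on few reads and are uncertain. WT replicate 3 was close to the cKO libraries and the other WT libraries lay lower.

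Of the genes that build the complexes, limma called 0 as well. Of the listed assembly genes outside the name rule, 8 of 9 tested had a log2 fold change above 0 for complex I, 3 of 4 for complex II, 4 of 6 for complex III, 17 of 22 for complex IV and 2 of 5 for complex V, with medians of 0.06, 0.20, 0.07, 0.06 and -0.01. Uqcc2, which encodes an assembly factor for cytochrome b, had 26.4 ± 3.87 FPKM in cKO and 19.8 ± 4.26 FPKM in WT (log2 fold change 0.41, SE 0.167, limma adjusted p = 0.773). Coa8, an assembly factor of complex IV, had 10.6 ± 0.612 FPKM in cKO and 8.50 ± 0.551 FPKM in WT (log2 fold change 0.29, SE 0.092, limma adjusted p = 0.743). Cox11, which delivers copper to complex IV, had 5.41 ± 0.624 FPKM in cKO and 6.48 ± 0.388 FPKM in WT (log2 fold change -0.23, SE 0.108). Cytochrome c1 (Cyc1) had 58.5 ± 3.43 FPKM in cKO and 57.4 ± 5.6 FPKM in WT, and cytochrome c (Cycs) had 8.29 ± 0.911 FPKM in cKO and 7.84 ± 0.643 FPKM in WT. Of the regulators of mitochondrial biogenesis, 5 of 13 tested had a log2 fold change above 0 (median -0.05). Polg, the catalytic subunit of the mitochondrial DNA polymerase, had the smallest p of that list, with 5.23 ± 0.837 FPKM in cKO and 6.40 ± 0.352 FPKM in WT (log2 fold change -0.26, SE 0.126, limma adjusted p = 0.79). Tfam, the packaging factor of mitochondrial DNA, followed with 20.3 ± 1.29 FPKM in cKO and 18.7 ± 1.58 FPKM in WT. Ribosomal protein genes were added after the values were seen. The median was 0.16 over 82 genes of cytoplasmic ribosomal proteins (median length 846.5 bases) and 0.10 over 78 genes of mitochondrial ribosomal proteins (1580 bases). Without replicate 2 of both groups it was -0.03 for the cytoplasmic and -0.02 for the mitochondrial ones.

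Many OXPHOS genes have annotated copies elsewhere in the genome, and in some pairs the division of reads differed between libraries. The table ties 84 pseudogene rows to the Swiss-Prot entries of 35 OXPHOS genes, 14 of them with a mean of at least 1 FPKM. The 3 pairs with the largest share of reads on the copy in any library are given here, chosen after their values were seen. Ndufa12, an accessory subunit gene of complex I, had 295, 125 and 127 reads in cKO and 141, 147 and 115 reads in WT, so that cKO replicate 1 stood apart. Its copy Ndufa12-ps on chromosome 5 had 116, 310 and 163 reads in cKO and 154, 121 and 239 reads in WT. The copy thus held 28.2% to 71.3% of the joint reads. Scaled to the library, the highest over the lowest library was 2.51 for Ndufa12 and 1.54 for the sum.

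Ndufs5, an accessory subunit gene of complex I, had 520, 593 and 346 reads in cKO and 437, 420 and 524 reads in WT. Ndufs5-ps on chromosome 16 had 15, 13 and 190 reads in cKO and 8, 7 and 8 reads in WT. The library with the fewest reads on Ndufs5, cKO replicate 3, was the one with many on the copy. Cox7a2l had 2914, 2139 and 2784 reads in cKO and 2496, 2227 and 3414 reads in WT, and its copy Gm6969 on chromosome 12 had 540, 930 and 444 reads in cKO and 469, 354 and 55 reads in WT. The highest over the lowest library was 1.66 for Cox7a2l and 1.32 for the sum. For Cox5b, Ndufs3 and Ndufab1 the sum varied more than the gene, at 1.72 against 1.59 for Cox5b. In the other pairs examined it varied less. The largest spread within a group among all 92 genes was that of Atp5e in WT (2.77 between the highest and the lowest library), followed by Ndufa12 and Cox7b in cKO (2.40 and 2.39). Cox7b, a small complex IV subunit gene on the X chromosome, stood at 31.4, 75.1 and 37.1 FPKM in cKO and 34.3, 27.9 and 48.1 FPKM in WT. What sets the division of reads between a gene and its copy was not tested.

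**Figure D5:**
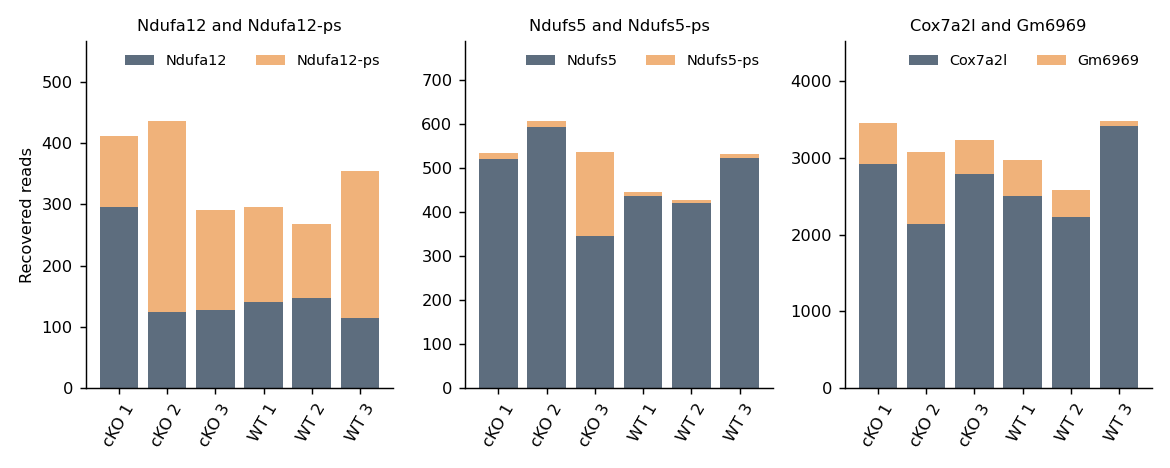
Recovered reads on 3 OXPHOS genes (grey) and on the pseudogene copy of each (orange), stacked, for the 3 cKO and the 3 WT libraries. Copies hold up to 71.3% of the joint reads for Ndufa12, 35.4% for Ndufs5 (cKO replicate 3) and 30.3% for Cox7a2l (cKO replicate 2).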

How the data were processed

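Groups and replicate numbers came from the sample labels. The values were FPKM per gene, deposited by the authors in 1 table, with 0 value columns left unmapped. The submitters' processing notes name HISAT2 2.0.5 and the builds mm10 and GRCm39, and the table's coordinates are on GRCm39. Which counter, annotation release and strand setting made the values was not given in the sources used here, so reads of overlapping genes cannot be told apart.

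FPKM times gene length was a whole multiple of 1 step per library for 100% of values within 0.01, which gave recovered reads. With 1 read worth 0.052 to 0.0581 FPKM in a gene of 1 kb, counting error matters most for low genes and for short ones. Atp5k, 320 bases long with a mean of 23.5 FPKM, had 78 reads in WT replicate 2. Values were taken as log2(FPKM + 1), on which changes of low genes come out too small. The 14714 genes whose mean reached 1 FPKM were fitted with limma 3.58.1 in R 4.3.3 (lmFit, eBayes with a trend, two-sided), with Benjamini-Hochberg adjustment over them. Errors are SD over 3 libraries or limma's moderated standard error (SE). Isoform ratios were tested by exact permutation with Python 3.11.15. The fit was tested on simulated data with log2 changes larger than that of any OXPHOS gene. Smaller changes were not simulated, so the power to call them is not known.

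Alternatives were other pseudocounts (0.1, 0.5), filters (5 FPKM, none), scalings, no trend in the prior, a replicate block, leaving out each library, and a fit on protein-coding genes alone. Genes named are, in each complex, the 3 with the highest level, then over all complexes the 6 with the smallest p on each side, the 2 nearest the level threshold on each side, paralogous isoforms, the 3 with the largest spread within a group, Srsf1, and, in each other list of pathway genes, up to 2 genes with the smallest p. The members and lists were chosen with earlier results of these data known. One gene that the rule names is not reported here. Other genes are said to be chosen after their values were seen.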

Additional observations from a re-analysis of the deposited data

How the results depend on the processing

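Called OXPHOS genes stayed at 0 higher and 0 lower in each of the 18 other fits, with a smallest adjusted p of 0.656 in any of them. Genes called among all those tested numbered 3, against 0 with no filter, 0 with the replicate block, 0 with limma-voom on the recovered reads, 1 with protein-coding genes only, 1 with the length trend removed, and 0 to 2 with a library left out. Pseudocounts of 0.1 and 0.5 and a filter at 5 FPKM gave 2. At an unadjusted p under 0.05, limma placed 2 of the 92 higher and 0 lower with all libraries and limma-voom 0 and 0. Limma placed 0 higher without cKO replicate 2 or WT replicate 2, and 6 higher without any 1 of the other libraries, with 1 lower without WT replicate 1. Over all 14714 genes tested, in either direction, such a p went to 933 with all libraries and to 912 with limma-voom. With a library left out it went to 487 to 1053, fewest without WT replicate 2. OXPHOS genes with a log2 fold change above 0 numbered 62 to 86 with a library left out, lowest without WT replicate 2, and 40 without replicate 2 of both groups. Of all genes tested, 48.6% to 52.3% lay above 0 with a library left out, and 50.7% without replicate 2 of both groups. Rescaling to a common FPKM total gave 67 of 92 with a median of 0.08, where 36.5% of all genes tested lay above 0 (median -0.06). The median over OXPHOS genes was 0.04 to 0.19 with a library left out. Without replicate 2 of both groups, the medians were -0.029 in complex I, 0.0076 in complex III and -0.015 in complex IV. These moved by more than the spread between replicates, and the medians of complexes II and V and of all 92 genes did not. The 2 libraries were chosen after their values were seen, so these moves follow in part from the choice and carry no test. Fits chosen after seeing the data were limma-voom, leaving out both replicates 2, removing the length trend, and leaving out assembly factors and Ndufab1-ps (median 0.14).

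Of the single genes, 4 uncalled ones changed direction, the cause not tested. With a library left out, Atp5b ran from -0.0965 to 0.00612 (above 0 without cKO replicate 2), Atp5a1 from -0.0451 to 0.0161 (above 0 without cKO replicate 2 or WT replicate 3) and Cox7a2l from -0.249 to 0.0456 (above 0 without cKO replicate 2 or WT replicate 3). Ndufaf5 ran from -0.194 to 0.0526 (above 0 without cKO replicate 1, cKO replicate 3 or WT replicate 3). Atp5a1 was at 0.0068 without replicate 2 of both groups.

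Same-numbered libraries had correlations of deviations from the group means of 0.18, -0.08 and -0.06. Those of other numbers ran from -0.23 to 0.23. With 3 libraries per group these values depend on one another, so they cannot show whether the numbers pair the libraries. With the replicate block, 0 genes were called and the median over OXPHOS genes was 0.14. SEs of the 92 log2 fold changes ran from 0.0805 to 0.369.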
